A study of Saccharomyces cerevisiae with 12 samples.

Results

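The comparison set yeast grown at the 2 lower glucose levels of a 4-level series, 0.5% and 0.25%, against yeast grown at the 2 higher levels, 2% and 1%. It used all 12 arrays of the series, 6 in each group (the lower and the higher group), and the groups were taken from the glucose level in each sample title. The organism was Saccharomyces cerevisiae, budding yeast, and total RNA was labelled with biotin and read on one-colour Affymetrix arrays. Each level had 3 samples that the design text calls biological replicates, numbered 1 to 3 in the titles, and the number was kept as a block so that arrays were compared with arrays of the same number. No strain, genotype, other medium component, cell density or harvest time is given in the sources used here. Each sample title holds the glucose level, the word log, which is not explained there, and the replicate number. Markers of haploid a cells were bright and those of alpha cells dim: mRNA for the a-factor precursors read 1476 ± 184 (MFA1) and 2350 ± 113 (MFA2) at the lower levels, and the alpha-factor precursor MF(ALPHA)1 read 4.2 ± 3.12 there (mean signal ± SD, n = 6). None of the 15 markers passed between the 2 groups in limma, and all 6 of a cells had lower mean signals at the lower levels, AGA2 and BAR1 with log2 differences of -0.19 and -0.18 (adjusted p = 0.078 and 0.1).

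Budding yeast senses outside glucose through plasma membrane receptors and inside glucose through phosphorylation and kinase pathways. Abundant glucose induces low-affinity hexose transporters, while the repressors of the Mig family hold down genes for high-affinity uptake, for other carbon sources and for respiration. When glucose falls, the Snf1 kinase relieves that repression, and lower protein kinase A activity is known to raise reserve carbohydrate and stress genes.

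Of 10928 probe sets on the array, 5028 were at 0 on all 12 arrays, and the 5498 above 0 that are annotated to a gene of this yeast (5449 genes) were tested. Deposited signals had been scaled so that the trimmed mean was 500 on each array, so a difference in total RNA per cell could not be seen, and in bulk RNA fewer cells with a transcript and less of it per cell cannot be told apart. Array signals correlated with r from 0.9846 to 0.9896 within a level and from 0.9721 to 0.9914 between levels (log2 scale, across probe sets, which are not independent). The number of arrays limits the precision, and the median standard error of a log2 difference was 0.08. Of 2 technical measures, 1 set the 2% arrays apart from the other levels and the other differed in its mean. The log2 ratio of 3′ to 5′ signal of 7 control genes was 1.28 ± 0.12 (SD, n = 3) at 2%, against 0.88 ± 0.061 at 1%, 0.91 ± 0.027 at 0.5% and 0.88 ± 0.043 at 0.25%. Mean ribosomal RNA signal (log2, 17 probe sets) was 7.77 ± 0.94 (SD, n = 3) at 2%, 8.92 ± 0.70 at 1%, 9.08 ± 0.63 at 0.5% and 8.90 ± 0.70 at 0.25%. Single arrays overlapped in it, with replicate 3 of 2% at 8.76 and replicate 1 of 0.25% at 8.12. Between the 2 groups the 3′ to 5′ measure differed by -0.18 (two-sided exact permutation test, p = 0.13) and the ribosomal RNA signal by 0.65 (p = 0.20, the same test). Permuted within the replicate numbers, a test added after the data were seen, the exact p were 0.19 and 0.17. The 3′ to 5′ measure was lower at the lower levels within each of the 3 replicate numbers (-0.25, -0.20 and -0.10), and the ribosomal RNA signal was higher within each (1.00, 0.75 and 0.20). Counts and the main genes are therefore also given without the 2% arrays, and the part of these measures in the results was not tested beyond the values given.

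Between the 2 groups, 267 of 5498 probe sets passed (4.86%; limma's moderated test with the replicate block, Benjamini-Hochberg adjusted p under 0.05). At the lower levels 163 were higher (2.96%) and 104 lower (1.89%), and 23 of the 267 differed by at least 2-fold, 19 of them upward. Each of the 267 differed in the same direction within all 3 replicate numbers. The same arrays and block chose these 267, so the shared direction carries no test. For 93 of them the 6 signals of one group did not overlap the 6 of the other, while 117 of all 5498 probe sets (2.13%) had such a gap. The median log2 difference of all tested probe sets was -0.01.

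The number of calls depended on the ends of the series. With the 2% arrays left out, so that 0.5% and 0.25% were set against 1% alone, 33 passed (0.6%), 32 of them among the 267. All 267 kept their direction and 254 had an unadjusted p under 0.05, but the median size of their differences was 0.29 in place of 0.40 (log2). Fits that leave out arrays reuse others that chose the calls, so kept directions carry no independent test. With the 0.25% arrays left out 25 passed, all among the 267. Leaving out single arrays gave as few as 122 calls (without replicate 3 of 2%) and as many as 356 (without replicate 2 of 1%); the other arrays whose loss cut the count by over 1.5 times were replicates 1 and 2 of 2% (134 and 174) and replicates 1, 2 and 3 of 0.25% (156, 144 and 123). A fit with ribosomal RNA signal as a covariate called 65, and one with the 3′ to 5′ measure 61. Without the replicate block 103 passed, all among the 267. The 2-group fit counts differences between levels of 1 group as spread, and a fit of 4 level means with the same contrast called 477 (8.68%), including all 267. The chart of calls by setting shows these totals.

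**Figure D1:**
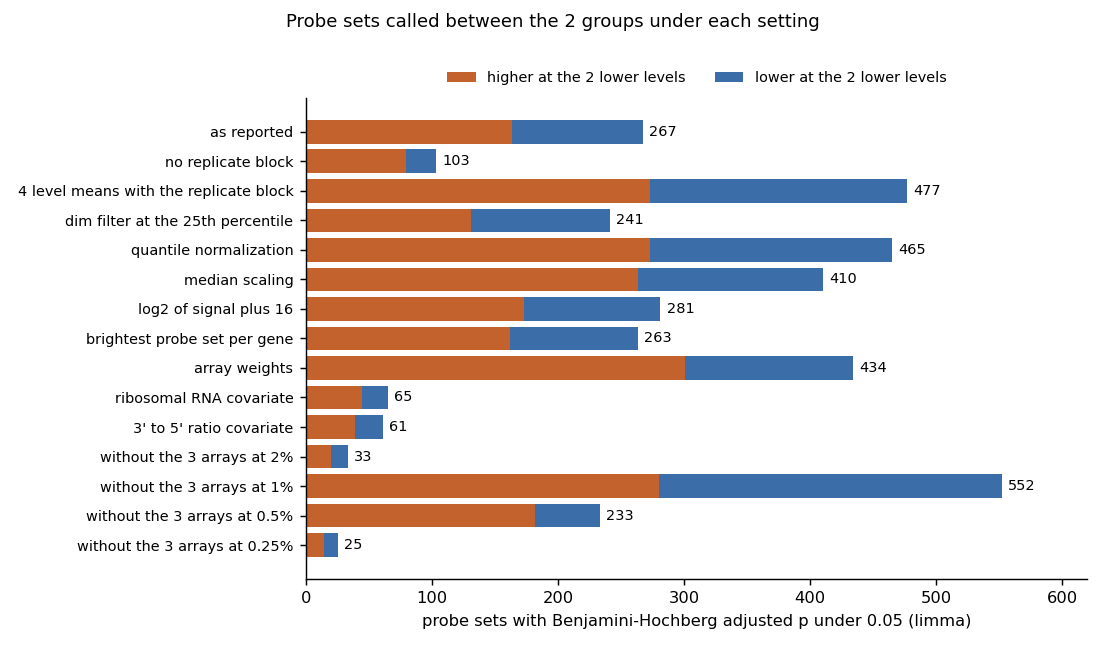
Number of probe sets called between the 2 lower and the 2 higher glucose levels (horizontal axis) under each setting (rows), with those higher at the lower levels in orange and those lower in blue. The count as reported was 267, and the counts were smallest without the 0.25% arrays (25) and without the 2% arrays (33).

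Hexose transporter mRNAs moved in both directions. Of 22 tested transporter and glucose sensor genes, 4 were higher and 2 lower at the lower levels, against backgrounds of 2.96% and 1.89%, and the list median was -0.03 (0.01 after quantile normalization; all tested: -0.01). HXT1, a low-affinity transporter made in high glucose, showed the largest difference of all probe sets that passed. Its lowest, median and highest signals were 649.7, 1116 and 1430 at the 2 higher levels and 49.5, 128 and 195 at the 2 lower levels. No array of the lower group came near the higher group, and the geometric mean signal was 9.52-fold lower (log2 difference -3.25, SE 0.34, adjusted p = 0.00015). HXT3, the other major low-affinity transporter, read 2142, 2377 and 2534 at the higher and 917, 1522 and 1789 at the lower levels, again as lowest, median and highest. Those ranges did not overlap either, with a log2 difference of -0.79 (SE 0.15, adjusted p = 0.0054). Without the 2% arrays HXT1 passed (-2.81, adjusted p = 0.023) and HXT3 did not (-0.81, adjusted p = 0.12).

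The 4 higher genes were the transporters HXT7, HXT2 and HXT4 and the regulator MTH1. HXT7, a high-affinity transporter, read 294, 587 and 944 at the higher levels and 1306, 1859 and 2303 at the lower levels, so the lowest array of the lower group lay above the highest of the other. The log2 difference was 1.72 (SE 0.27, adjusted p = 0.002); this probe set is of the array's shared type, and the near-identical HXT6 may contribute to it. HXT2, another high-affinity transporter, went from 1143, 1689 and 2204 to 2570, 2785 and 2922 and also left a gap between the 2 groups (log2 difference 0.79, SE 0.15, adjusted p = 0.007). HXT4 differed by 0.97 (SE 0.22, adjusted p = 0.018), but its ranges overlapped, and its adjusted p rose above 0.05 without any 1 of the 3 arrays at 2% or without replicate 3 of 0.25% (at most 0.056). MTH1, a partner of the Rgt1 repressor that holds transporter genes down when glucose is scarce, had a log2 difference of 1.26 (SE 0.23, adjusted p = 0.0056). Without the 2% arrays HXT7 and HXT2 passed with smaller differences (1.06 and 0.38; adjusted p = 0.029 and 0.023), while HXT4 (0.48, adjusted p = 0.31) and MTH1 (0.81, adjusted p = 0.18) did not. MTH1 also missed the threshold with the ribosomal RNA covariate (adjusted p = 0.056) and the 3′ to 5′ covariate (adjusted p = 0.053). HXT4 lost its call with both covariates as well and HXT2 with the ribosomal RNA covariate, while HXT7 passed with both. Without the 0.25% arrays 0 of these 4 passed. The sensors themselves did not pass with the values as reported. The low-glucose sensor SNF3 differed by 0.31 (SE 0.09, adjusted p = 0.056) and the high-glucose sensor RGT2 by -0.07 (SE 0.09, adjusted p = 0.7). SNF3 passed under 8 of the alternatives to the reported fit and RGT2 under 0.

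**Figure D2:**
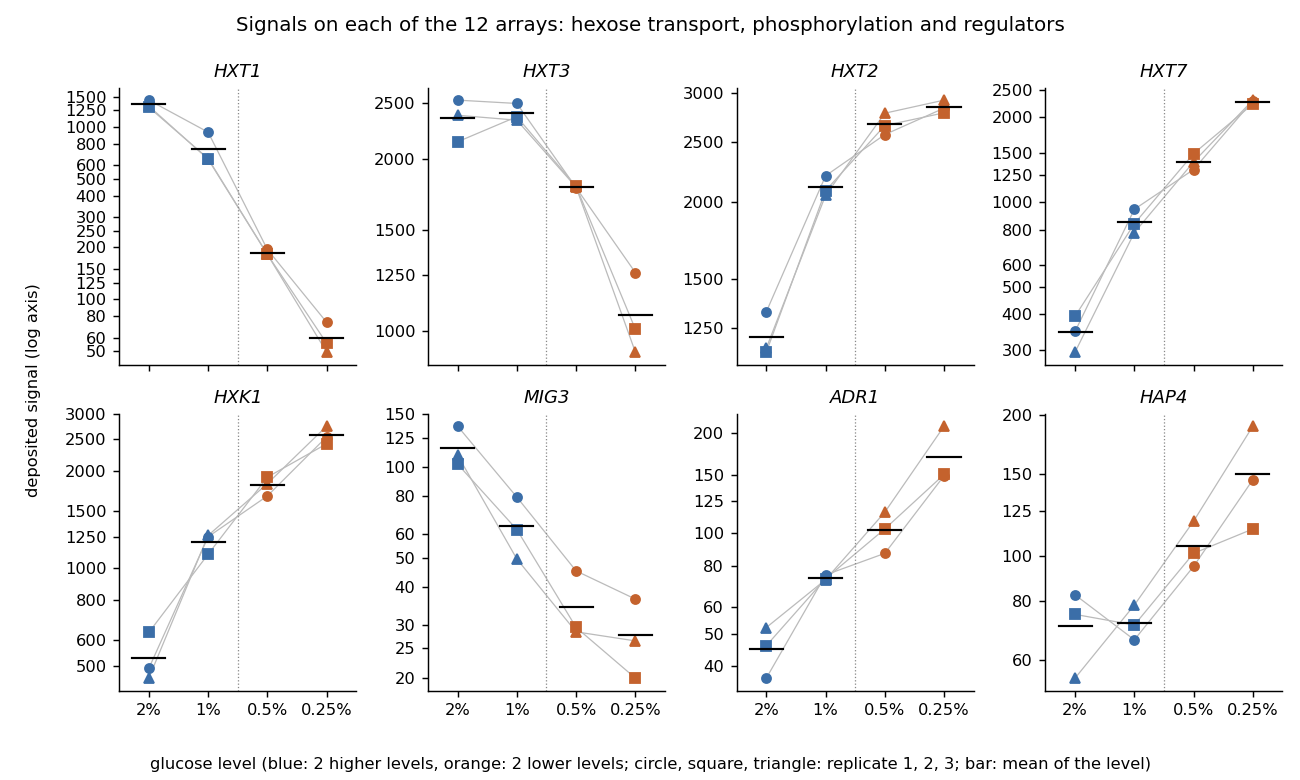
Deposited signal (vertical axis, log scale, own range per panel) at each glucose level (horizontal axis) for 8 genes of sugar uptake, phosphorylation and regulation; each point is 1 array, grey lines join arrays of 1 replicate number, and bars are level means. HXT1, HXT3 and MIG3 lie lower right of the dotted line between the 2 groups and the other genes higher, with no overlap between the 6 arrays of each group.

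Among 27 regulators of glucose repression and derepression, 4 were higher and 2 lower (22.2% called, beside 4.86% of all probe sets). MIG3, a zinc finger repressor related to Mig1, read 49.5, 90.9 and 137 at the higher and 19.9, 28.9 and 45.2 at the lower levels (lowest, median, highest). It was 2.83-fold lower with no overlap (log2 difference -1.50, SE 0.20, adjusted p = 0.00068). The related repressor MIG2 also fell (log2 difference -0.56, SE 0.09, adjusted p = 0.0017), with overlapping ranges, and did not pass without the replicate block. Activators went the other way. ADR1, which turns on genes for ethanol and fatty acid use, rose from 36.8, 62.4 and 75.1 to 87.2, 132 and 210, a log2 difference of 1.19 (SE 0.20, adjusted p = 0.0033). CAT8, the activator of gluconeogenic genes, had signals of 13.6, 24.4 and 27.8 and 33.5, 43.6 and 57.5 and a log2 difference of 1.04 (SE 0.20, adjusted p = 0.007), at signals under the 25th percentile of the array. HAP4, the limiting subunit of the activator of respiratory genes, went from 54.8, 73 and 82.5 to 95, 116 and 189.6 (log2 difference 0.81, SE 0.15, adjusted p = 0.0056). In all 3 of these activators every lower-level array lay above every higher-level one. Without the 2% arrays both repressors still passed (MIG3 -1.06, adjusted p = 0.023; MIG2 -0.57, adjusted p = 0.049), while ADR1, CAT8 and HAP4 kept log2 differences of 0.82, 0.80 and 0.79 with adjusted p of 0.12, 0.12 and 0.054. CAT8 also missed the threshold with the ribosomal RNA and 3′ to 5′ covariates (adjusted p = 0.068 and 0.087), where ADR1 and HAP4 passed. Of the stress regulators downstream of protein kinase A, MSN4 was higher at the lower levels (log2 difference 0.74, SE 0.16, adjusted p = 0.013), with all 6 lower-level arrays above the others. It did not pass without the 2% arrays (0.49, adjusted p = 0.18) or with either covariate. By mean log2 signal MIG3, ADR1, HAP4 and MSN4 also lay under the 25th percentile (a signal of 109.7).

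Of 21 genes of hexose phosphorylation and glycolysis, 5 were higher and 0 lower (23.8% called, beside 4.86% of all probe sets). Of the 5, 4 passed whichever single array was left out. HXK1, a hexokinase repressed in high glucose, rose from 459, 869.9 and 1263 to 1672, 2167 and 2745 with a gap between the 2 groups (log2 difference 1.44, SE 0.24, adjusted p = 0.003). The glucokinase GLK1 differed by 0.61 (SE 0.11, adjusted p = 0.0048), its relative EMI2 by 0.55 (SE 0.11, adjusted p = 0.008) and the minor pyruvate kinase PYK2 by 0.41 (SE 0.08, adjusted p = 0.0091). The main hexokinase HXK2 did not pass, at 3585 ± 389.7 against 3799 ± 174 (SD, n = 6; log2 difference 0.09, SE 0.06, adjusted p = 0.47). Only HXK1 of the 5 passed without the 2% arrays (log2 difference 0.84, adjusted p = 0.026).

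Among genes for alternative carbon sources, ALD4, the mitochondrial acetaldehyde dehydrogenase of ethanol use, read 629, 733 and 927 at the higher and 1198, 1427 and 1861 at the lower levels. The 2 groups were 1.93-fold apart without overlap (log2 difference 0.94, SE 0.12, adjusted p = 0.00047). MAL33, an activator of maltose genes, rose from 29.8, 43.5 and 77.2 to 79.3, 102 and 166 (log2 difference 1.30, SE 0.22, adjusted p = 0.0031), also without overlap. Its mean log2 signal lay under the 25th percentile (a signal of 109.7). GUT2, the mitochondrial glycerol 3-phosphate dehydrogenase, had a log2 difference of 0.73 (SE 0.13, adjusted p = 0.0053). The invertase gene SUC2 passed narrowly at 0.45 (SE 0.12, adjusted p = 0.036) and lost the call without any 1 array of 2% or 0.25% or without replicate 2 of 0.5% (adjusted p at most 0.1). Of these 4, ALD4 passed without the 2% arrays (0.74, adjusted p = 0.023). MAL33, GUT2 and SUC2 did not (0.83, 0.54 and 0.25; adjusted p = 0.07, 0.18 and 0.49). Of 17 gluconeogenic, glyoxylate and lactate genes 2 passed, both upward (11.8%, beside 4.86% of all probe sets). With single arrays left out that count went from 0 to 4 (4 without replicate 1 of 0.5%). The gluconeogenic FBP1 stayed at single-digit mean signals, 6.08 ± 2.81 and 9.15 ± 3.45 (SD, n = 6, adjusted p = 0.21). The counts of 0 were reached without replicate 1 or 3 of 2%, and a count of 1 without replicate 2 of 2%, replicate 2 of 1% or any 1 of the 0.25% arrays. None of 26 genes of fatty acid oxidation and peroxisomes passed in limma, where 2 had an unadjusted p under 0.05 in each direction.

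Of 20 tested ATP synthase genes 6 passed, all upward (30%, beside 4.86% of all probe sets). All 20 had a positive difference (list median 0.19), where 47.1% of all tested probe sets had one. INH1, the inhibitor of the ATPase, rose from 101, 146 and 178 to 192, 239 and 283 without overlap (log2 difference 0.72, SE 0.13, adjusted p = 0.0046), and ATP3, the gamma subunit, differed by 0.29 (SE 0.06, adjusted p = 0.014). These 2 were the ones that passed whichever single array was left out; the count fell to 3 without replicate 1 or 3 of 2% or replicate 1 of 0.25%, and to 2 without replicate 2 or 3 of 0.25%. In the respiratory chain 21 of 23 differences were positive (median 0.16) and 2 genes passed (8.7%). Among them was NDE1, a dehydrogenase for cytosolic NADH (log2 difference 0.55, SE 0.11, adjusted p = 0.01). The count was 1 when any array of 2% or 0.25% was left out, 8 without replicate 1 of 1% and 5 without replicate 1 of 0.5%. Of 21 genes of the tricarboxylic acid cycle 4 were higher and 0 lower (19% called). MDH1, mitochondrial malate dehydrogenase, went from 784, 889 and 926 to 995, 1092 and 1262 with no overlap (log2 difference 0.34, SE 0.07, adjusted p = 0.007), and CIT1, citrate synthase, differed by 0.40 (SE 0.09, adjusted p = 0.014). Of 67 mitochondrial ribosomal protein genes 61 had positive differences with a median of 0.09, and 0 passed in limma, 17 of them with an unadjusted p under 0.05 (1 or 2 passed without replicate 1 or 2 of 1% or replicate 1 of 0.5%). Without the 2% arrays 0 members of these 4 lists passed, and differences were positive for 19 of 20 ATP synthase, 21 of 23 respiratory chain, 16 of 21 tricarboxylic acid cycle (19 of 21 with all arrays) and 60 of 67 mitochondrial ribosomal protein genes. With the 3′ to 5′ covariate, or without the 0.25% arrays, 0 members of the 4 lists passed. The ribosomal RNA covariate left 1 ATP synthase call and 0 in the other lists.

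Of 16 glycogen genes 5 rose and 0 fell (31.2% called, beside 4.86% of all probe sets), 11 of 16 differences were positive, and the list median was 0.31. GLC3, the branching enzyme, read 81, 141 and 163 at the higher and 194, 277 and 392 at the lower levels. The 2 groups stood apart by a log2 difference of 1.11 (SE 0.18, adjusted p = 0.0029). GPH1, glycogen phosphorylase, rose from 76.5, 119 and 155 to 164, 246 and 331 (log2 difference 1.10, SE 0.19, adjusted p = 0.0038), so an enzyme of breakdown rose alongside those of synthesis. GSY1, a glycogen synthase, went from 74.2, 101 and 115 to 142, 202 and 261 (log2 difference 1.05, SE 0.16, adjusted p = 0.0017), and its isoform GSY2 differed by 0.48 (SE 0.10, adjusted p = 0.0099). PGM2, phosphoglucomutase, differed by 0.64 (SE 0.13, adjusted p = 0.012). All 5 passed whichever single array was left out; without the 2% arrays 0 of the 5 passed, and the log2 differences of GLC3, GPH1 and GSY1 were 0.83, 0.73 and 0.80. Of 7 trehalose genes 3 rose and 0 fell (42.9% called). They were TSL1, a regulatory subunit of trehalose synthase (0.52, SE 0.10, adjusted p = 0.0056), the trehalase NTH2 (0.32, SE 0.06, adjusted p = 0.0038) and the phosphatase TPS2 of trehalose synthesis (0.29, SE 0.07, adjusted p = 0.031), and TSL1 passed without the 2% arrays (0.39, adjusted p = 0.029). TSL1 missed the threshold without the replicate block, with either technical covariate and without the 0.25% arrays. TPS2 lost its call without any array of 2% or 0.25% or replicate 2 or 3 of 0.5% (adjusted p at most 0.084).

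Of 28 general stress response genes 9 rose and 1 fell (35.7% called, beside 4.86% of all probe sets), while the list median was 0.12. The fall, GRE2, a methylglyoxal reductase (-0.40, SE 0.10, adjusted p = 0.025), lost its call without any array of 2% or 0.25% or replicate 2 or 3 of 0.5% (adjusted p at most 0.077). Of the 9 rises 6 passed whichever single array was left out and 3 passed without the 2% arrays. TMA10, a small ribosome-associated protein of unknown role, had the largest rise of the 163. It read 88, 139.8 and 182 at the higher and 330.5, 494 and 895 at the lower levels, with a wide gap between. That is 3.91-fold (log2 difference 1.97, SE 0.26, adjusted p = 0.00072). DDR2, a multistress gene, rose from 53, 83.5 and 104 to 142, 212 and 294 (log2 difference 1.40, SE 0.18, adjusted p = 0.00056). HSP12, a membrane-protecting small stress protein, went from 179, 234 and 255 to 298, 409.7 and 586 (log2 difference 0.88, SE 0.13, adjusted p = 0.0011). PNC1, the nicotinamidase, showed a small difference with tight replicates: 1221, 1246 and 1290 against 1439, 1577 and 1712 (log2 difference 0.32, SE 0.05, adjusted p = 0.0026). None of these 4 overlapped between the 2 groups, and TMA10, DDR2 and PNC1 passed without the 2% arrays (1.53, 1.14 and 0.33; adjusted p = 0.042, 0.029 and 0.044). In the other protective lists 0 of 21 heat shock chaperones passed in limma (unadjusted p under 0.05 for 3), and 1 passed without replicate 2 of 1% or replicate 1 of 0.25%. Of 26 antioxidant genes 1 rose, the mitochondrial peroxiredoxin PRX1 (log2 difference 0.40, SE 0.07, adjusted p = 0.0053). That share of 3.85% lies near the 2.96% of all probe sets called higher.

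The iron regulon was the list with the most calls. Of 34 tested genes of iron uptake, transport and their regulators 17 were higher and 0 lower (50% called, beside 4.86% of all probe sets). Differences were positive for 28 of 34, and the median was 0.30. The regulon is switched on by Aft1 when cellular iron is scarce and serves uptake of iron by reduction and of iron bound to siderophores. Its activator AFT1 read 212, 236 and 247 at the higher and 264, 285 and 322 at the lower levels. Those ranges did not meet, with a log2 difference of 0.31 (SE 0.06, adjusted p = 0.007). The siderophore transporter SIT1 rose from 494, 674 and 887 to 975, 1236 and 1374 (log2 difference 0.85, SE 0.10, adjusted p = 0.00035), and ARN1 and ENB1, of the same family, differed by 0.56 (SE 0.09, adjusted p = 0.0022) and 0.55 (SE 0.09, adjusted p = 0.0023). FIT2, a cell wall protein that retains siderophore iron, went from 1118, 1324 and 1540 to 1557, 2541 and 2984 (log2 difference 0.85, SE 0.12, adjusted p = 0.00087). FET3, the ferroxidase of reductive uptake, differed by 0.66 (SE 0.09, adjusted p = 0.00073). Inside the cell, the heme oxygenase HMX1 rose from 30.4, 40.7 and 45.2 to 59.7, 72.2 and 93.5 without overlap (log2 difference 0.91, SE 0.13, adjusted p = 0.00093). Every HMX1 signal lay under the 25th percentile (a signal of 109.7). TIS11, which promotes decay of mRNAs for iron-using proteins, differed by 1.19 (SE 0.18, adjusted p = 0.0012). Also higher were CCC2, which loads copper into Fet3 (0.44, SE 0.08, adjusted p = 0.0037), and the vacuolar iron transporter FTH1 (0.25, SE 0.05, adjusted p = 0.011).

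Of the 17 iron genes 13 passed whichever single array was left out, 6 without the 2% arrays, 11 with the ribosomal RNA covariate and 9 with the 3′ to 5′ covariate, and all 17 kept their direction without the 2% arrays. Over all 34 members the median step was 0.09 from 2% to 1%, 0.25 from 1% to 0.5% and 0.03 from 0.5% to 0.25% (log2), against -0.01, -0.02 and 0.04 for all tested probe sets. Choosing genes by the difference between the 2 groups favours a large middle step, as for the 3 genes that follow. HMX1 stepped by 0.12, 0.77 and 0.17, FIT2 by 0.23, 0.80 and -0.13, and CCC2 by -0.01, 0.42 and 0.06. For FIT2 the step from 1% to 0.5% passed on its own (adjusted p = 0.047), and its lowest signal of the lower group came from replicate 2 of 0.25%. Whether the middle step exceeded the outer ones was tested for each probe set, and 0 of 5498 passed, where 239 had an unadjusted p under 0.05.

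**Figure D3:**
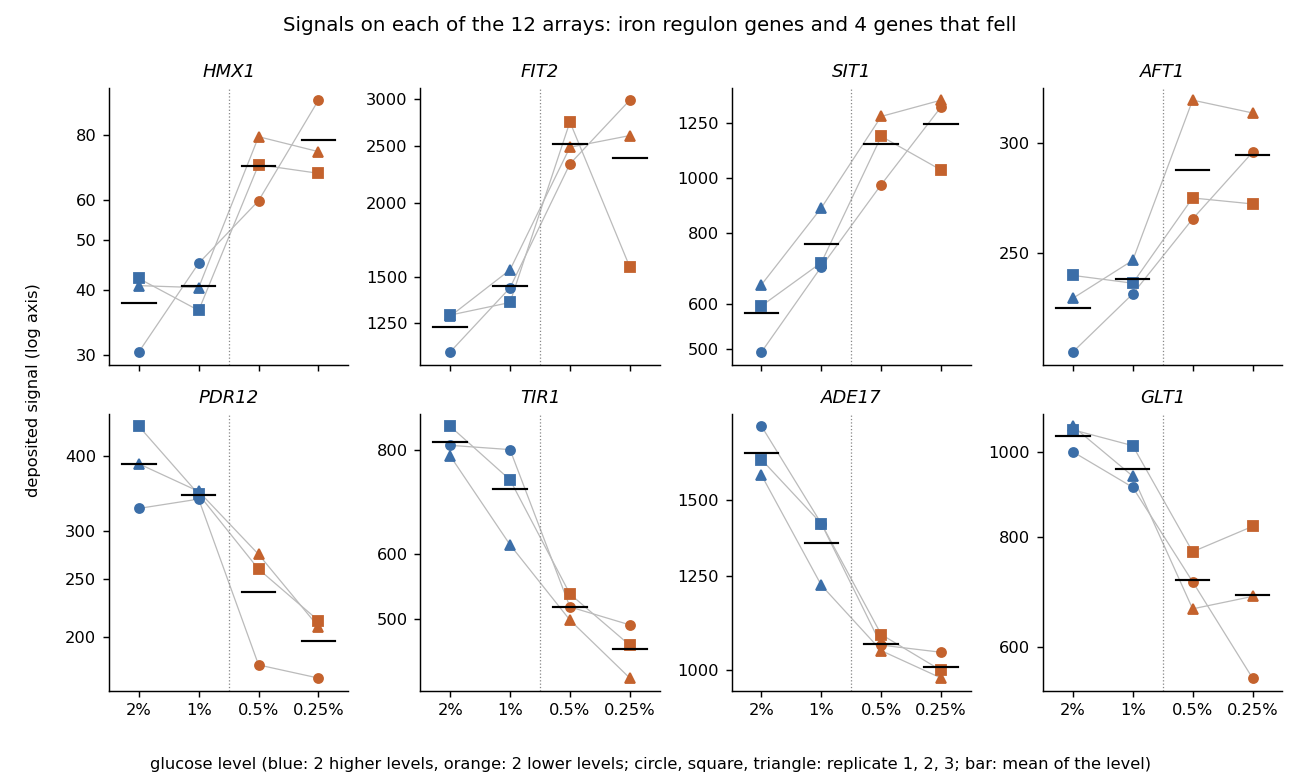
Deposited signal (vertical axis, log scale, own range per panel) at each glucose level (horizontal axis) for 4 iron regulon genes (top) and 4 genes that fell (bottom), drawn as in the plot of sugar genes. All 8 genes had no overlap between the 2 groups, and for HMX1, FIT2 and AFT1 the step between the 2 groups was larger than the steps within them.

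Sulfur and phosphate genes were also among the rises. In sulfur assimilation and methionine metabolism 9 of 33 rose and 0 fell (27.3% called, beside 4.86% of all probe sets; median 0.22). MET2, homoserine acetyltransferase, went from 108, 114 and 135 to 158, 179 and 273 (log2 difference 0.78, SE 0.12, adjusted p = 0.002) and MET28, a regulator of the pathway, from 23.9, 33.1 and 44.6 to 48, 57.6 and 67 (log2 difference 0.77, SE 0.13, adjusted p = 0.0027), neither with overlap. Every MET28 signal lay under the 25th percentile (a signal of 109.7). MET14, adenylylsulfate kinase, differed by 0.58 (SE 0.10, adjusted p = 0.0029) and was the member that passed without the 2% arrays (0.44, adjusted p = 0.049). The count was 5 without any 1 of the 2% arrays, and 5 of the 9 passed whichever single array was left out. In the phosphate regulon 8% of 25 genes passed, and a single transporter stood out. PHO89, a sodium-dependent phosphate carrier, read 239, 464 and 899 at the higher and 953, 1478 and 1766 at the lower levels. Its ranges did not overlap (log2 difference 1.67, SE 0.29, adjusted p = 0.0038), and it passed with a smaller difference without the 2% arrays (0.93, adjusted p = 0.044), its step from 2% to 1% being 1.47. Of the other 24 phosphate genes 0 rose and 1 fell, PHO3, an acid phosphatase (-0.29, SE 0.06, adjusted p = 0.019), which lost the call without replicate 1 of 2% or replicate 2 or 3 of 0.25% (adjusted p at most 0.053).

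Outside these lists, GSC2, a catalytic subunit of cell wall glucan synthase, rose from 449.7, 586 and 777 to 881, 1151 and 1329 (log2 difference 0.91, SE 0.13, adjusted p = 0.00094). It did so without overlap and passed without the 2% arrays (0.62, adjusted p = 0.027). YBL100W-A, a Ty retrotransposon gene read by a shared probe set that cannot tell the copies apart, went from 172, 259.5 and 442 to 449, 635 and 672 (log2 difference 1.17, SE 0.21, adjusted p = 0.0053), and by 0.61 without the 2% arrays (adjusted p = 0.03).

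The genes that fell included exporters and genes of low-oxygen growth. PDR12, an exporter of weak organic acids, read 327, 347 and 448 at the higher and 171, 210.3 and 274 at the lower levels. Every lower-level array lay below the others (log2 difference -0.76, SE 0.09, adjusted p = 0.00027). TPO1, a polyamine exporter, fell from 163, 191 and 245 to 105, 133 and 140.1 (log2 difference -0.58, SE 0.10, adjusted p = 0.003). Of 25 hypoxic and anaerobic genes 7 were lower and 1 higher (32% called, beside 4.86% of all probe sets), with a median of -0.08. In growth without oxygen such genes encode wall mannoproteins and isoforms of heme-dependent or respiratory functions. TIR1, a wall mannoprotein, read 615, 794 and 855 and 425, 496 and 536 with small spread in each group (log2 difference -0.65, SE 0.07, adjusted p = 0.00015). ANB1, the hypoxic isoform of translation factor eIF5A, fell from 505, 611 and 686 to 312, 393 and 476 (log2 difference -0.58, SE 0.08, adjusted p = 0.00094). AAC3, the anaerobic ADP/ATP carrier, differed by -0.56 (SE 0.10, adjusted p = 0.0048), TIR3 by -0.51 (SE 0.09, adjusted p = 0.0037) and HEM13, coproporphyrinogen oxidase of heme synthesis, by -0.28 (SE 0.05, adjusted p = 0.0087). These 5 passed whichever single array was left out, and TIR1 and ANB1 passed without the 2% arrays (-0.55 and -0.45; adjusted p = 0.023 and 0.044). The 1 gene of the list that rose was the fatty acid desaturase OLE1 (0.29, SE 0.06, adjusted p = 0.016), a call lost without replicate 3 of 2% (adjusted p = 0.053).

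Biosynthetic genes made up a further group of small falls. Of 22 genes of purine synthesis and one-carbon metabolism 5 were lower and 0 higher (22.7% called, beside 4.86% of all probe sets). Differences were positive for 4 of 22, and the median was -0.12. ADE17, which catalyses the last steps to IMP, read 1224, 1504 and 1786 at the higher and 982, 1046 and 1089 at the lower levels. The lower group was tight and entirely below the other (log2 difference -0.54, SE 0.07, adjusted p = 0.00073). ADE13, adenylosuccinate lyase, differed by -0.23 (SE 0.05, adjusted p = 0.011) and IMD2, IMP dehydrogenase, read by a shared probe set, by -0.66 (SE 0.10, adjusted p = 0.002). Among 60 amino acid biosynthesis genes 6 fell and 0 rose (10% called). GLT1, glutamate synthase, went from 911, 1008 and 1069 to 554, 699 and 823 (log2 difference -0.52, SE 0.07, adjusted p = 0.00056) and HIS4 of histidine synthesis from 1640, 1692 and 1861 to 1406, 1450 and 1518 (log2 difference -0.25, SE 0.05, adjusted p = 0.0099). ADE17 and GLT1 passed without the 2% arrays (-0.38 and -0.46). The amino acid count was 2 without replicate 1 or 3 of 2% or replicate 3 of 0.25%, and 3 without replicate 2 of 2%, replicate 3 of 0.5% or replicate 2 of 0.25%; the purine count was 3 without replicate 1 or 3 of 2%, replicate 2 of 0.5% or replicate 1 or 3 of 0.25%.

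Of 88 ribosome biogenesis genes 3 fell and 0 rose (KRR1, NOC4 and RRP5, with -0.23, -0.35 and -0.22). That share of 3.41% stands beside 1.89% of all probe sets called lower and 4.86% called in either direction. A fall had an unadjusted p under 0.05 for 34 of the 88 (1117 of all 5498 probe sets in either direction). The fit of 4 level means called 11 falls. Differences were positive for 5 of the 88, against 47.1% of all tested probe sets, and the list median was -0.11; the list itself was not tested. The 3 calls became 0 without replicate 1 or 3 of 2% or replicate 3 of 0.25%, 1 without replicate 1 or 2 of 0.25%, and 8 without replicate 2 of 1%; the step medians were -0.04, -0.11 and 0.05. Cytosolic ribosomal protein genes did not share that sign in the deposited values: 102 of 128 differences were positive with a median of 0.05, and 0 passed in limma (3 with an unadjusted p under 0.05; 1 without replicate 1 of 2% or replicate 1 or 2 of 0.5%). After quantile normalization their sign flipped, with 53 of 128 positive and a median of -0.01. Of 36 genes of RNA polymerases I and III 1 fell (2.78%, near the 1.89% of all probe sets called lower). It was RPO31, the largest subunit of polymerase III (-0.21, SE 0.05, adjusted p = 0.026), a call lost without any array of 2% or 0.25% or without replicate 2 or 3 of 0.5% (adjusted p at most 0.068).

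Among 30 mating genes 3 fell and 1 rose (13.3% called, beside 4.86% of all probe sets), and the rise was lost without any array of 2% or 0.25%. KAR4, a regulator of mating genes, differed by -0.49 (SE 0.10, adjusted p = 0.0099). AGA1, the anchor of the a-agglutinin, read 312, 377 and 522 at the higher and 284, 295 and 306 at the lower levels, a gap that separated the 2 groups by a log2 difference of -0.38 (SE 0.09, adjusted p = 0.028). That call was lost without replicate 2 or 3 of 2%, replicate 2 of 0.5% or any array of 0.25% (adjusted p at most 0.08). The 3 calls became 1 without replicate 2 or 3 of 2%, replicate 2 of 0.5% or replicate 1 or 3 of 0.25%. HUG1, a small inhibitor of ribonucleotide reductase induced by DNA damage, was 1 of 3 falls among 43 replication and histone genes (-0.50, SE 0.09, adjusted p = 0.0061). That list had 6.98% called, beside 4.86% of all probe sets. Its other calls were lost without any 1 of several arrays (replicates 2 and 3 of 2%, each array of 0.5%, replicates 1 and 2 of 0.25%), which left 1, while 5 passed without replicate 2 of 1%. Without the 2% arrays 0 genes of either list passed, and KAR4, AGA1 and HUG1 differed by -0.30, -0.18 and -0.39. Other non-overlapping falls were RDH54, a recombination ATPase (-0.29, SE 0.06, adjusted p = 0.012), TAH18, a reductase of iron-sulfur protein assembly (-0.28, SE 0.07, adjusted p = 0.026), and YBR200W-A, whose signals were under 10 on every array (between 0.639 and 9.57; -1.79, SE 0.40, adjusted p = 0.019). TAH18 lost its call without replicate 1 or 2 of 2%, replicate 2 of 0.5% or any array of 0.25% (at most 0.061), and YBR200W-A without replicate 1 or 3 of 2% (at most 0.056).

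**Figure D4:**
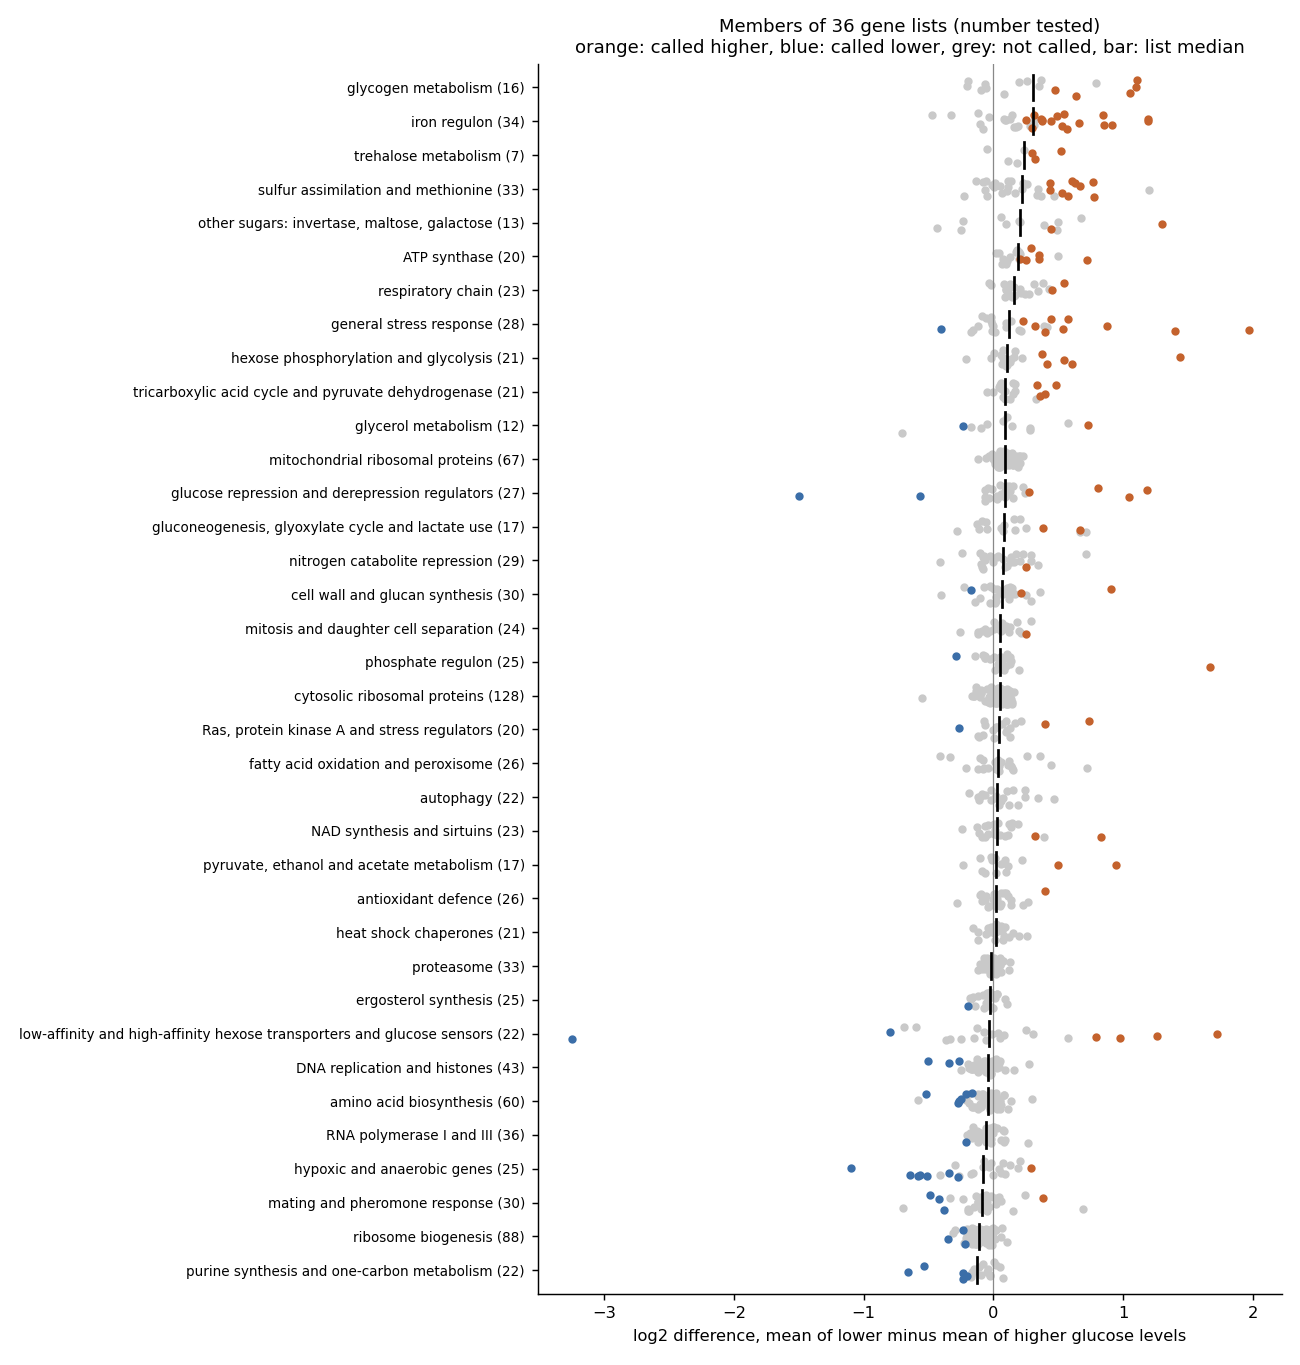
Log2 difference between the mean of the 2 lower and the mean of the 2 higher glucose levels (horizontal axis) for each tested member of 36 gene lists (rows, number tested in brackets); each point is 1 gene, coloured if it passed, and bars are list medians. Glycogen (median 0.31) and iron (0.30) lists lie furthest right and purine (-0.12) and ribosome biogenesis (-0.11) lists furthest left.

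The fit of 4 level means placed the differences along the series. From 2% to 1% 48 probe sets passed (0.873%), from 1% to 0.5% 18 (0.327%) and from 0.5% to 0.25% 13 (0.236%; 3 of them downward, 0.0546%); without the replicate block the first and last of these counts were 10 and 6, and with the 3′ to 5′ covariate 1 and 8. Single arrays moved the 48 to between 13 (without replicate 1 of 2%) and 76 (without replicate 2 of 2%), with 21 to 30 without any array of 1%, replicate 2 of 0.5% or replicate 1 of 0.25%. They moved the 13 to 4 (without replicate 1 of 0.5% or replicate 1 or 3 of 0.25%), 6 or 7 (without replicate 2 or 3 of 0.5%) and 20 (without replicate 2 of 0.25%). Of the 267, 183 changed in the same direction over all 3 steps, 126 of the 163 rises and 57 of the 104 falls. The largest step lay between 1% and 0.5% for 141 of them, between 2% and 1% for 76 and between 0.5% and 0.25% for 50. Rises were spread over the series, with median steps of 0.23, 0.25 and 0.17 in their own direction, while the falls had medians of 0.12, 0.21 and 0.02, and 6 of 104 had their largest step at the low end. Selection on the difference between the 2 groups favours a large middle step, so these counts describe the 267 and carry no test. The direct test of the middle step against the mean of the outer ones called 0 probe sets in limma, with 239 at an unadjusted p under 0.05.

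Single genes differed in where they moved. TMA10 rose by nearly equal steps of 0.88, 0.96 and 1.12, each of which passed. HXT7 rose most from 2% to 1% (1.31, adjusted p = 1.3e-06) and then by 0.71 and 0.71. HXT2 had nearly completed its rise at 0.5%, with steps of 0.81, 0.34 and 0.09. HXT3 stayed level between 2% and 1% (0.03) and then changed by -0.43 and -0.76, the last with an adjusted p of 0.00042. HXT1 stepped down by log2 differences of -0.88, -1.98 and -1.67, all of which passed. HAP4 changed by 0.04 within the higher group and by 0.54 and 0.49 after it. MIG3 changed by -0.88 and -0.90 over the first pair of steps and by -0.32 over the last.

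**Figure D5:**
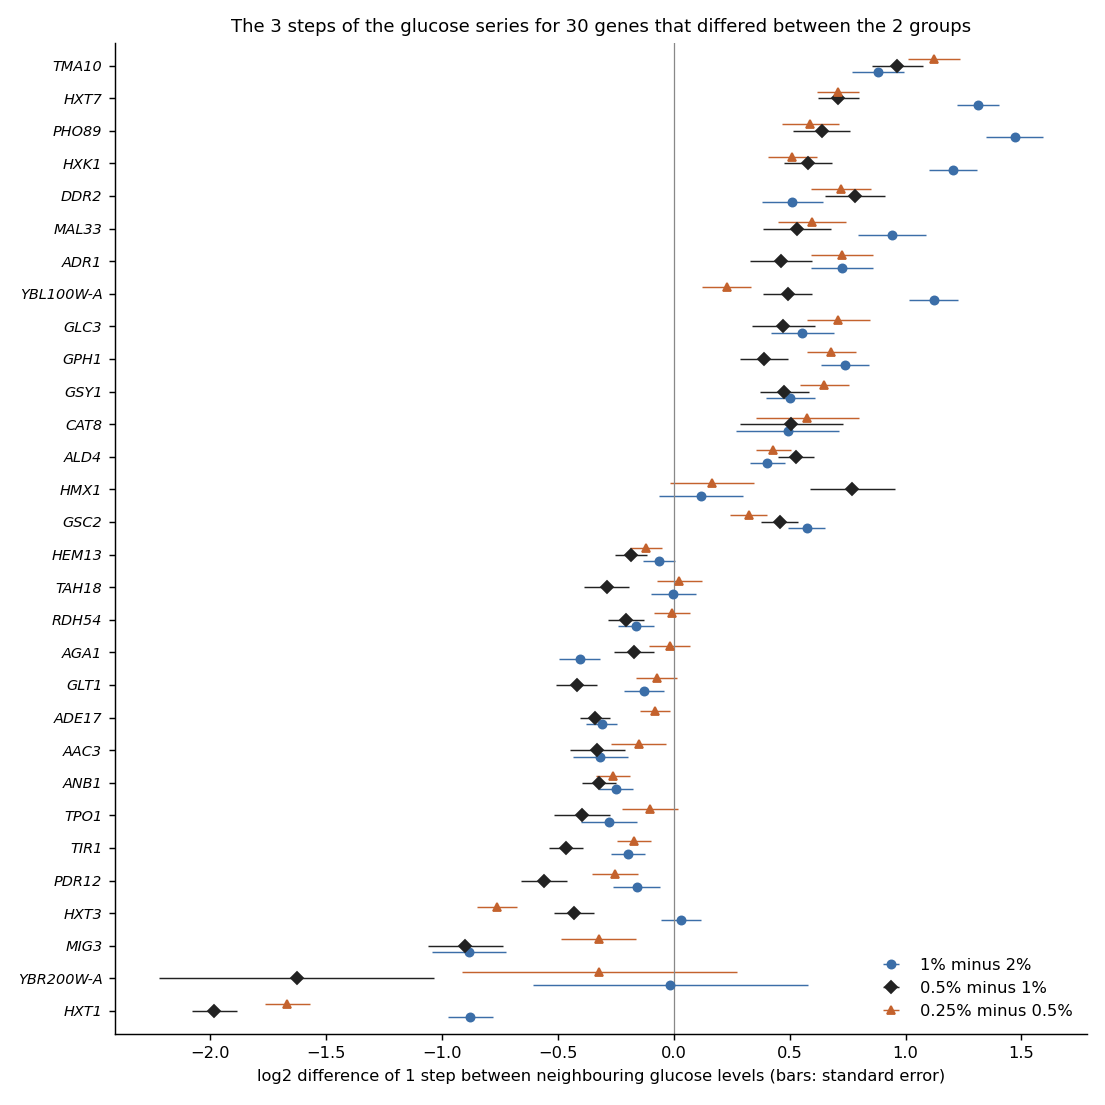
Log2 difference of each step between neighbouring glucose levels (horizontal axis, with standard errors) for 30 genes (rows), the 15 largest rises and 15 largest falls among calls whose 6 and 6 arrays did not overlap; blue circles are 1% minus 2%, black diamonds 0.5% minus 1% and orange triangles 0.25% minus 0.5%. The 3 steps of TMA10 are nearly equal, PHO89 and HXT7 step most from 2% to 1%, and HMX1 and TAH18 have their largest step in the middle. Selection favours a large middle step, and the test of that step against the outer ones called 0 probe sets.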

How the data were processed

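Total RNA of the 12 samples was extracted with Trizol and read on one-colour Affymetrix arrays, per the labels. The values the authors deposited are linear array intensities, 1 summarised signal per probe set, already scaled to a trimmed mean of 500 (2% of probe sets off each end); no program or build is named in the sources used here. Signals were taken as log2 with a floor of 1, which touched 317 of 65976 values. No probe set was left out for a dim signal, the 25th percentile filter being an alternative. Differences were fitted with limma 3.58.1 in R 4.3.3 (glucose group and replicate number as fixed effects, intensity trend in the prior, two-sided moderated test) and adjusted by Benjamini-Hochberg over 5498 probe sets; a second fit held 4 level means. The script was tested on simulated data.

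The replicate number was kept as a block because same-numbered arrays deviated together: 17 of 18 pairs had r above 0.1 (from -0.039 to 0.71) and 11 of 12 arrays correlated best with an array of their own number; the labels do not say what a number stands for. Named genes were those called without any overlap of the 6 and 6 signals, 15 upward and 15 downward by size, and, in each of 36 textbook gene lists, up to 4 members with the largest differences plus those needed for a count. SNF3, RGT2 and HXK2 were named beside them for contrast, after their values were seen. For 47 genes with several probe sets the brightest was used; ENA5 (-0.29 and 0.21, both called) disagreed between them. Members, lists and tests were chosen with earlier results of these data known. Alternatives were no block, 4 level means, a dim filter, quantile and median scaling, an offset of 16, 1 probe set per gene, array weights, 2 covariates, each level left out and each array left out. Sequences of promoters and proteins were not used here.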

Additional observations from a re-analysis of the deposited data

Results flagged for a closer look

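In 202 sets of 6 arrays (each named gene and technical measure in each group), 6 had an array standing far from the other 5. For 6 like arrays chance alone flags about 1 set in 20. Each set here held 2 glucose levels, so that rate need not hold and the count of 6 cannot be judged against it. TPO1 read 105.1 on replicate 2 of 0.25%, the lowest of the lower group. MSN4 read 27.2 on replicate 1 of 2% and PRX1 read 366.7 on the same array, each the lowest of the higher group. TPS2 read 221.2 on that array too, again the lowest of the higher group, and 322.6 on replicate 1 of 0.5%, the lowest of the lower group. PDE2 read 398.9 on replicate 3 of 0.25%, the lowest of the lower group. It lost its call without that array, and also without replicate 1 of 0.25% or replicate 1 or 3 of 2%. Without replicate 1 of 2% MSN4 still passed, with an adjusted p of at most 0.045 when any single array was left out, and so did PRX1 (at most 0.02) and TPO1 (at most 0.011).

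Of 265 probe sets above 0 that have no listed gene and are not controls, 7 also differed between the 2 groups (3 higher and 4 lower; 2.64%, beside 4.86% of the tested probe sets), with log2 differences between -0.40 and 0.77.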

How the results depend on the processing

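Of the 95 named genes that passed, 0 changed direction under any of 26 alternatives that tested them, and 70 passed whichever array was left out. Of the 30 genes with the largest differences among calls without overlap, 9 passed under every alternative that tested them. They were TMA10, DDR2, ALD4, HMX1, HXT1, MIG3, PDR12, TIR1 and GLT1, of which the dim filter left HMX1 and MIG3 untested. Of the 30 genes, 20 lost the call without the 0.25% arrays and 13 without the 2% arrays. With the values as reported 163 were higher and 104 lower. The cause of the shifts that follow was not tested. No replicate block gave 103 calls (79 higher, 24 lower). The 4 level means gave 477 (273 and 204), quantile normalization 465 (273 and 192), median scaling 410 (263 higher) and array weights 434 (301 higher). The ribosomal RNA covariate gave 65 (44 and 21) and the 3′ to 5′ covariate 61 (39 and 22). Left-out levels reduce the arrays per group: 33 (20 and 13) without 2%, 552 (280 and 272) without 1%, 51 lower without 0.5%, and 25 (14 and 11) without 0.25%. Single arrays left out gave 122 to 356 calls (81 to 245 higher, 41 to 192 lower).

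For 1% against 2% (48 as reported) the count was 10 without the replicate block, 166 after quantile normalization, 164 after median scaling, 83 with array weights, 25 and 1 with the ribosomal RNA and 3′ to 5′ covariates, and 13 to 76 with single arrays left out. For 0.25% against 0.5% (13) it was 6 without the block, 20 and 22 after quantile and median scaling, 21 with the offset of 16, 145 with array weights, 8 with the 3′ to 5′ covariate and 4 to 20 with single arrays left out. The middle step test gave 0 except with array weights (3), and 0 without each single array. Dim probe sets limit the low end: 55 of the 267 lay under the 25th percentile (a signal of 109.7), 42 of them among the rises. Permuting within the replicate block left the control measures' differences (-0.18 and 0.65) short of the threshold.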

Other observations

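Several calls lay side by side in the genome. By RefSeq gene order, 19 adjacent pairs of protein-coding genes had both members past the threshold, of 5017 pairs with both members tested: 8 pairs both higher, 3 both lower and 8 in opposite directions. Of the 260 genes that passed and had a tested neighbour, 36 (13.8%) had a neighbour that passed, beside 8.31% of all 5406 genes with a tested neighbour. These genes were chosen after their values were seen, and the shares carry no test. FIT2, FIT3 and FRE5 form a run of 3 rises (log2 differences 0.85, 0.53 and 1.19), and MHT1 and MMP1, for recycling of S-methylmethionine, lie divergently and differed by 0.63 and 0.61. Pairs in opposite directions included the repressor MIG2 (-0.56) beside SIP2 (0.27), a subunit of the Snf1 kinase. Of these genes, 3 lost their calls when single arrays were left out: FRE5 without any array of 2%, replicate 2 or 3 of 0.5% or replicate 1 or 3 of 0.25% (adjusted p at most 0.091), MMP1 without any 1 of 3 arrays (at most 0.053) and SIP2 without any 1 of 10 arrays (at most 0.13).

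CAR1, the gene for arginase, was higher at the lower levels (log2 difference 0.25, SE 0.05, adjusted p = 0.0059, no overlap), and it was the 1 call among 29 genes of nitrogen catabolite repression, where 7 had an unadjusted p under 0.05 in the same direction. That share of 3.45% lies near the 2.96% of all probe sets called higher, and the count was 2 without replicate 1 or 3 of 1% and 3 without replicate 1 of 0.5%. GAD1, the gene for glutamate decarboxylase, differed by 0.45 (SE 0.09, adjusted p = 0.007), also without overlap. Of 33 proteasome and 22 autophagy genes 0 passed in limma, with an unadjusted p under 0.05 for 2 and 4 of them.

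Calls in the lists not described above are given beside the 4.86% of all probe sets that passed. The Ras, protein kinase A and stress regulators had 2 higher and 1 lower of 20 genes (15%; MSN4, GIS1 and the phosphodiesterase PDE2, at -0.27). Pyruvate, ethanol and acetate enzymes had 2 higher of 17 (11.8%; ALD4 and the alcohol dehydrogenase ADH2, at 0.50), genes for other sugars 2 higher of 13 (15.4%; MAL33 and SUC2) and glycerol genes 1 higher and 1 lower of 12 (16.7%; GUT2 and YPR1, at -0.24). NAD and sirtuin genes had 2 higher of 23 (8.7%; PNC1 and the NADH kinase YEF1, at 0.83) and cell wall genes 2 higher and 1 lower of 30 (10%; GSC2, PIR1 and GAS3, the last pair at 0.21 and -0.17). Sterol synthesis had 1 lower of 25 (4%; ERG7, at -0.19) and mitosis 1 higher of 24 (4.17%; ASH1, at 0.25). The calls of PDE2, GIS1, ADH2, SUC2, YPR1, YEF1, PIR1, GAS3, ERG7 and ASH1 were each lost without at least 1 single array, those of PIR1, GAS3 and ERG7 without any 1 of 9 arrays. Counts over 1.5 times as high were 4 cell wall rises without replicate 2 of 1% or replicate 1 of 0.5%, 3 mitosis rises without replicate 1 of 1%, 3 glycerol rises without replicate 1 of 0.5% and 2 sterol falls without replicate 2 of 1%.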
